A study of Rattus norvegicus with 16 samples.

Results

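The genes of major histocompatibility complex (MHC) class II presentation, Cd74, Ciita, RT1-Ba, RT1-Bb, RT1-Da, RT1-Db1, RT1-DMa and RT1-DMb, were followed through sciatic nerve injury in the rat, as 8 of 18166 genes measured. They were chosen by symbol, each was represented by 1 probe set, and all 8 were tested. RNA came from 6-week-old male Sprague Dawley rats, an outbred stock, and was read on Affymetrix arrays of the Rat Gene 2.0 ST type. There were 4 groups with 4 arrays each, or 16 arrays in all, and the labels call the arrays of a group biological replicates. The injured nerves at 3 days post-injury (DPI) and at 7 DPI were distal segments of a sciatic nerve that had been cut on 1 side, with a piece removed and the distal end turned away from the wound so that axons would not regrow into it. The contralateral nerves at 3 DPI and at 7 DPI were the uninjured sciatic nerves of the other side, taken from the injured animals, so both kinds of nerve came from rats that had undergone surgery with analgesics. The labels do not tie a replicate number to an animal. Values are log2 expression levels, on which a difference of 1 is a 2-fold change.

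MHC class II molecules are pairs of an alpha and a beta chain that display peptides from internalised proteins to CD4 T cells. In the rat the classical molecules are RT1-B, built from RT1-Ba and RT1-Bb, and RT1-D, built from RT1-Da and RT1-Db1. The invariant chain, encoded by Cd74, guides newly made molecules to endosomes and blocks their groove, and RT1-DM, built from RT1-DMa and RT1-DMb, helps exchange the last invariant chain fragment for antigenic peptide. Ciita is the co-activator on which transcription of these genes depends, and it is recruited to promoter elements called the X and Y boxes. In peripheral nerve, class II is best known on resident and infiltrating macrophages.

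The promoters are shown first because they hold the elements on which Ciita is known to act. RefSeq promoter sequences (assembly GRCr8) were at hand for 6 of the 8 genes, Ciita and RT1-DMb being the others. Each covers 250 bases before and 50 bases after the annotated gene start. The letters GNAACNGAT or GNGACNGAT, as an X box core, and GATTGG, as a Y box core, were searched on both strands. They were chosen with the promoters of these genes in view. The last 120 bases before the start are printed 5′ to 3′ on the gene strand for the 5 RT1 genes, with matches to either core, on either strand, in capitals.
RT1-DMa, chr20:4712336-4712455, minus strand: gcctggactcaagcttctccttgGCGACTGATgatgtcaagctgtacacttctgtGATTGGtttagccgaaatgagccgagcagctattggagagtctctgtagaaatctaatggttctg
RT1-Da, chr20:4515295-4515414, plus strand: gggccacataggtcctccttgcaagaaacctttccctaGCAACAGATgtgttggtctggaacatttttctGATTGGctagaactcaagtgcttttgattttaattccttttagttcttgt
RT1-Db1, chr20:4560163-4560282, minus strand: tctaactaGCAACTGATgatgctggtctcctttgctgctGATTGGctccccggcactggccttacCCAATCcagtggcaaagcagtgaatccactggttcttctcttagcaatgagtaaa
RT1-Ba, chr20:4576937-4577056, plus strand: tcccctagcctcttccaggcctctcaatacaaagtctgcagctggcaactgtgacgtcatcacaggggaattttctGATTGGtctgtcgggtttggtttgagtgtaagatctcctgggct
RT1-Bb, chr20:4604119-4604238, minus strand: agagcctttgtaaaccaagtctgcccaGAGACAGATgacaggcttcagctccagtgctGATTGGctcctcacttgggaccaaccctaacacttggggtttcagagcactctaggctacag

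In RT1-DMa, RT1-Da, RT1-Db1 and RT1-Bb an X box core was followed by a Y box core on the gene strand, with 22 or 23 bases between the 2 cores. Of the letters searched, RT1-Ba held the Y box core alone, and the Cd74 window, which is not printed, held neither set. Other spellings of an X box were not searched, so a missing match does not mean that an X box is absent. RT1-Bb had a further X box core match at -185, and the second match in RT1-Db1 was a Y box core on the other strand. Over 27457 rat promoters of the same length, an X box core occurred in 4.05%, a Y box core in 15.3%, and an X box core with a Y box core starting within 40 bases downstream on the same strand in 34 promoters, or 0.124%. A match describes letters only. RT1-DMa, which rose after injury, and RT1-Bb, which did not pass the test on either day, shared this arrangement.

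**Figure D1:**
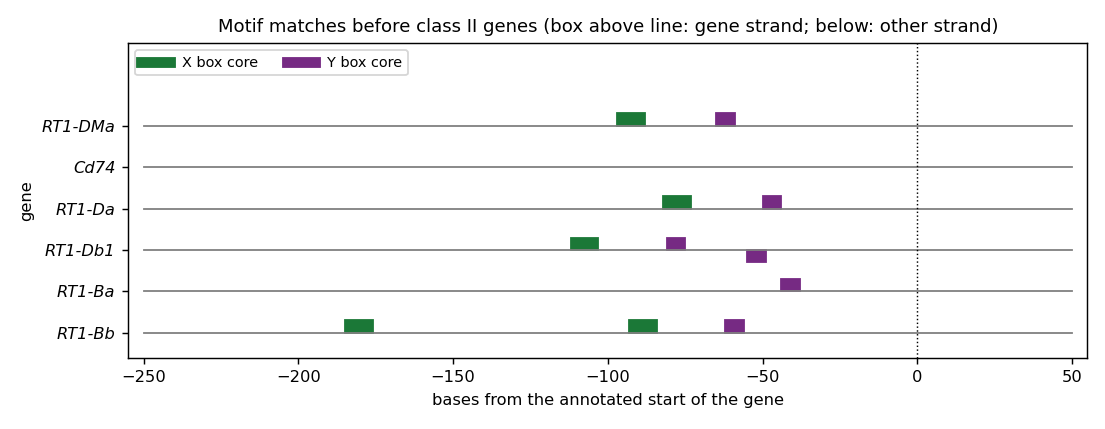
Positions of X box and Y box core matches in 6 promoters, in bases from the annotated start of each gene (dotted line). Boxes above a line lie on the gene strand and the box below a line lies on the other strand. In 4 genes a Y box core follows an X box core after 22 or 23 bases.

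Array medians over 36685 probe sets lay between 6.27 and 6.40, and arrays of 1 group correlated at 0.981 to 0.989. Of the Schwann cell genes, Sox10, a defining transcription factor, lay between 8.22 and 9.01 on all 16 arrays, and Mbp, a myelin gene, fell by 1.80 at 3 DPI and fell by 2.20 at 7 DPI. Others of that list rose, Ngfr, a receptor of injured Schwann cells, by 2.65 and 3.00 and Erbb3, a neuregulin receptor, by 1.03 at 7 DPI. Values come from whole nerve, in which fewer cells of a type and less RNA per cell cannot be told apart. Nothing ties the arrays to separate litters or days, so p-values set a difference of group means against the spread among these samples alone. Tests were made with limma in 1 fit over the 16 arrays, log2 changes carry the standard error of that fit (n = 4 arrays per group), and p-values were adjusted by the Benjamini-Hochberg method over all 18166 genes. A gene passed the test at an adjusted p under 0.05.

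The first question was whether class II genes changed in the distal nerve at 3 DPI. The 2 genes of the peptide exchange factor RT1-DM rose, and the other 6 genes did not pass the test. RT1-DMb had log2 values of 9.46, 9.20, 9.07 and 9.58 in injured nerves at 3 DPI, against 8.45, 7.71, 7.42 and 8.27 in contralateral nerves at 3 DPI. All 4 injured arrays lay above all 4 contralateral ones, as was the case for 19.3% of all genes, although contralateral replicates 1 and 4 came well above replicates 2 and 3. RT1-DMb was 1.37 ± 0.20 higher (2.58-fold, limma adjusted p = 3.96e-05). RT1-DMa had values of 9.38, 9.59, 9.33 and 9.64 in injured nerves and 8.87, 8.72, 8.25 and 8.82 in contralateral nerves, again with no overlap and with contralateral replicate 3 lowest. It was 0.82 ± 0.17 higher (1.77-fold, limma adjusted p = 0.000933). Thus 2 of 8 members were higher at an adjusted p under 0.05, against 18.8% of all genes, and 1 of 8 when at least a 2-fold change was also required, against 3.25% of all genes. None was lower, against 14.7% of all genes. The share of members that rose thus lay near that of all genes.

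**Figure D2:**
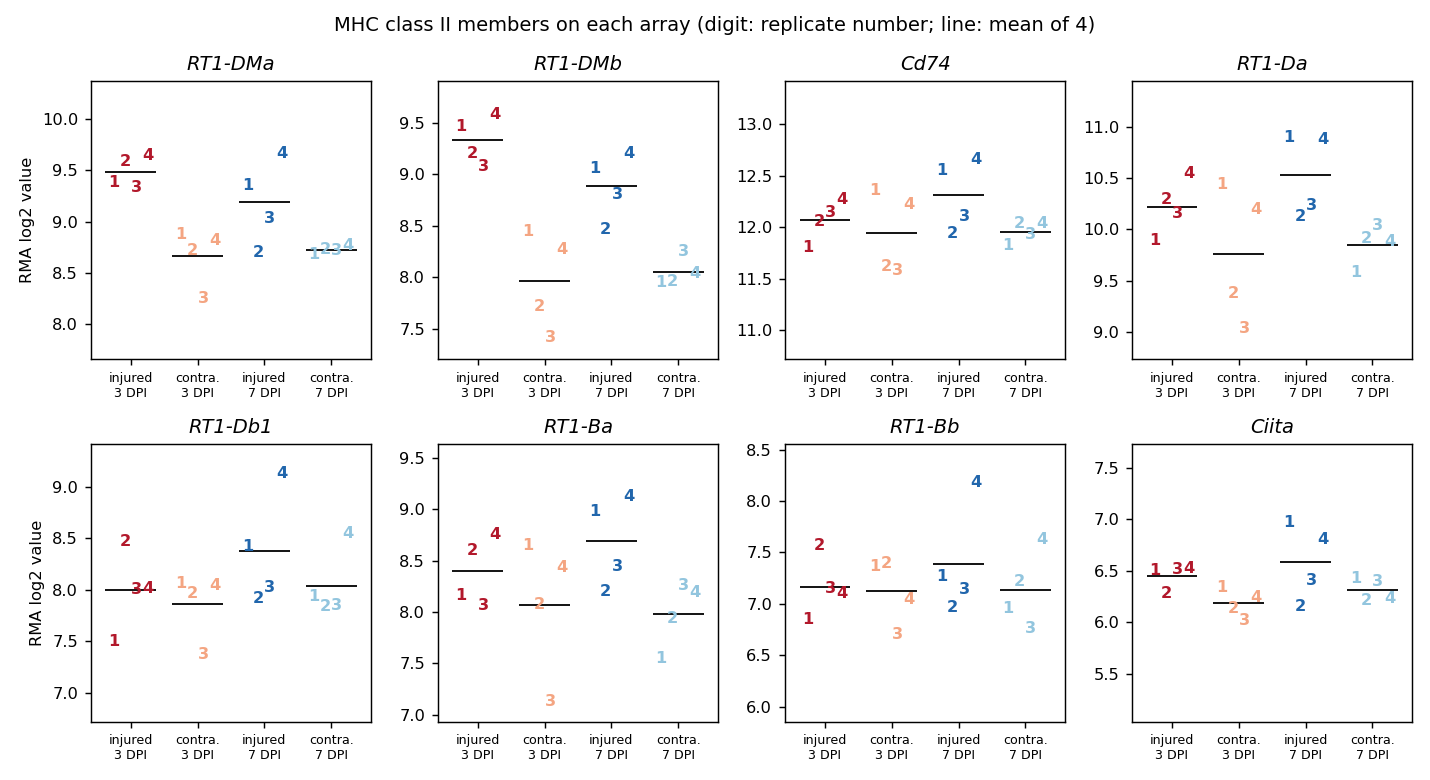
RMA log2 values (vertical axis) of the 8 class II members on each array, with injured left of contralateral nerve at 3 DPI and then at 7 DPI; each digit is an array's replicate number and each line the mean of 4 arrays. Each panel spans the same log2 range. RT1-DMb in injured nerves lies above contralateral nerves on both days.

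The invariant chain gene Cd74 stood at 11.80, 12.06, 12.14 and 12.27 in injured nerves at 3 DPI, against 12.36, 11.62, 11.58 and 12.23 in contralateral nerves. The groups overlapped, the highest array being contralateral replicate 1 and the lowest contralateral replicate 3. The difference was 0.12 ± 0.18 (limma adjusted p = 0.688), with a 95% interval of -0.27 to 0.51, so that a change of 2-fold lay outside the interval. RT1-Da, the alpha chain of RT1-D, had values of 9.90, 10.29, 10.16 and 10.54 in injured nerves and 10.43, 9.38, 9.04 and 10.19 in contralateral nerves. The groups overlapped. Injured replicate 4 lay above the contralateral range, which spanned 1.40 log2 units, and the other injured arrays lay inside it. The difference of 0.46 ± 0.26 did not pass (limma adjusted p = 0.211), and without contralateral replicate 1 it was 0.68 and passed narrowly (limma adjusted p = 0.0471), whereas without contralateral replicate 3 it was 0.22 (limma adjusted p = 0.573). These were the lowest and highest adjusted p over all alternatives.

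The other classical chains overlapped between injured and contralateral nerves at 3 DPI. RT1-Ba, the alpha chain of RT1-B, stood at 8.16, 8.60, 8.07 and 8.75 in injured nerves and at 8.65, 8.07, 7.13 and 8.44 in contralateral nerves, a difference of 0.32 ± 0.29. Contralateral replicate 3 lay far below the rest, and without it the difference was 0.010. RT1-Db1, the beta chain of RT1-D, had values of 7.50, 8.47, 8.0 and 8.02 in injured nerves and 8.07, 7.97, 7.38 and 8.04 in contralateral nerves, a difference of 0.14 ± 0.26. RT1-Bb, the beta chain of RT1-B, had values of 6.85, 7.57, 7.15 and 7.11 in injured nerves and 7.37, 7.40, 6.70 and 7.05 in contralateral nerves, a difference of 0.04 ± 0.25. In both beta chains injured replicate 2 was the highest of its group and injured replicate 1 the lowest. The 95% intervals ran from -0.28 to 0.93 for RT1-Ba, from -0.41 to 0.68 for RT1-Db1 and from -0.48 to 0.57 for RT1-Bb, each of which holds 0.

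Ciita, the class II co-activator, lay at 6.50, 6.28, 6.51 and 6.52 in injured nerves at 3 DPI, against 6.34, 6.14, 6.01 and 6.24 in contralateral nerves. Only injured replicate 2 fell below the highest contralateral array. The difference of 0.27 ± 0.14 did not pass (limma adjusted p = 0.164), and it passed narrowly when the 2 groups at 3 DPI were fitted alone (limma adjusted p = 0.0456, within a range of 0.0456 to 0.343 over all alternatives). These values lay close to the array medians.

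At 7 DPI both RT1-DM genes again passed the test, RT1-DMa only narrowly, and the other 6 genes did not. RT1-DMb had values of 9.06, 8.46, 8.80 and 9.20 in injured nerves at 7 DPI and 7.95, 7.96, 8.25 and 8.03 in contralateral nerves at 7 DPI. The groups did not overlap, and RT1-DMb was 0.83 ± 0.20 higher (1.78-fold, limma adjusted p = 0.00389). RT1-DMa stood at 9.35, 8.70, 9.03 and 9.66 in injured nerves, against 8.68, 8.73, 8.72 and 8.77 in contralateral nerves, so injured replicate 2 lay among the contralateral arrays while the other 3 lay above them. It was 0.46 ± 0.17 higher (1.38-fold, limma adjusted p = 0.0449). It no longer passed in 11 of 16 fits that each left out 1 array. It also did not pass with cyclic loess, array weights, the 7 DPI groups alone or a 2-sided exact permutation test (p = 0.114). Over the alternatives its limma adjusted p ranged from 0.00478 to 0.158, with 0.158 without injured 7 DPI replicate 4. At this day 2 of 8 members were higher at an adjusted p under 0.05, against 19.1% of all genes. None reached 2-fold, against 2.48%, and none was lower, against 13.0%.

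RT1-Da had values of 10.89, 10.13, 10.23 and 10.88 in injured nerves at 7 DPI and 9.58, 9.91, 10.04 and 9.88 in contralateral nerves. All injured arrays lay above all contralateral ones, as was the case for 18.9% of all genes, but injured replicates 2 and 3 did so narrowly and replicates 1 and 4 by far more. The difference was 0.68 ± 0.26 (1.60-fold, limma adjusted p = 0.0599). A two-sided exact permutation test of the 8 arrays gave p = 0.0286, the smallest that 4 against 4 arrays allow. Groups without overlap always give this value, so it only restates the separation, and it was not adjusted over genes. RT1-Ba had values of 8.98, 8.20, 8.44 and 9.13 in injured nerves and 7.55, 7.94, 8.26 and 8.19 in contralateral nerves, with a difference of 0.70 ± 0.29 (1.63-fold, limma adjusted p = 0.0735) and with injured replicate 2 inside the contralateral range. Without injured replicate 2 both alpha chains passed, RT1-Da at 0.81 (limma adjusted p = 0.0377) and RT1-Ba at 0.86 (limma adjusted p = 0.0397). Over all alternatives the limma adjusted p ranged from 0.0152 to 0.163 for RT1-Da and from 0.0221 to 0.205 for RT1-Ba.

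Cd74 stood at 12.55, 11.94, 12.10 and 12.66 in injured nerves at 7 DPI and at 11.82, 12.04, 11.93 and 12.04 in contralateral nerves. Replicates 1 and 4 of the injured group stood clear of the contralateral range, and replicate 2 lay inside it. The difference was 0.36 ± 0.18 (limma adjusted p = 0.158; 95% interval -0.03 to 0.74). RT1-Db1 had values of 8.42, 7.91, 8.02 and 9.13 in injured nerves and 7.93, 7.84, 7.84 and 8.55 in contralateral nerves, a difference of 0.33 ± 0.26 that was 0.077 without injured replicate 4. RT1-Bb had values of 7.27, 6.97, 7.14 and 8.18 in injured nerves and 6.95, 7.21, 6.76 and 7.63 in contralateral nerves, a difference of 0.25 ± 0.25. For both beta chains replicate 4 was the highest array of its group in injured and in contralateral nerve. Ciita lay at 6.97, 6.15, 6.40 and 6.81 in injured nerves and at 6.43, 6.21, 6.39 and 6.23 in contralateral nerves. Its difference was 0.27 ± 0.14, with injured replicates 1 and 4 above and replicate 2 below the whole contralateral group.

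**Figure D3:**
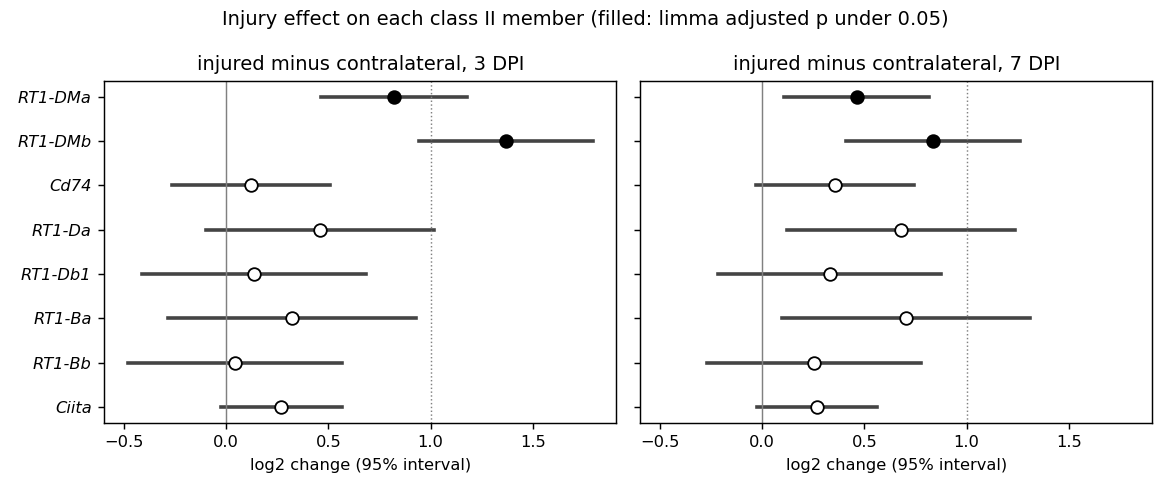
Log2 change of each member in injured minus contralateral nerve at 3 DPI (left) and 7 DPI (right), with 95% intervals of the limma fit; the dotted line marks a 2-fold increase. Filled points, RT1-DMa and RT1-DMb on both days, have an adjusted p under 0.05.

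The orders of the group means differed between RT1-DM and the classical chains, mostly within the spread. RT1-DMb averaged 9.33 ± 0.23 in injured nerves at 3 DPI, 7.96 ± 0.48 in contralateral nerves at 3 DPI, 8.88 ± 0.33 in injured nerves at 7 DPI and 8.05 ± 0.14 in contralateral nerves at 7 DPI (SD, n = 4 each), and RT1-DMa had the same order, highest in injured nerves at 3 DPI. Cd74, Ciita and the 4 classical chains had their highest mean in injured nerves at 7 DPI, where RT1-Da averaged 10.53 ± 0.41, with injured nerves at 3 DPI next for all of them except RT1-Db1. Neither day differed from the other beyond the spread. Injured nerves at 7 DPI against injured nerves at 3 DPI gave -0.45 ± 0.20 for RT1-DMb (limma adjusted p = 0.263), -0.30 ± 0.17 for RT1-DMa and 0.13 to 0.37 for the other 6. No member passed, against 4.02% of all genes. The injury effect at 7 DPI minus that at 3 DPI was -0.53 ± 0.28 for RT1-DMb (limma adjusted p = 0.438), -0.36 ± 0.24 for RT1-DMa and -0.00 to 0.38 for the other 6, and no member passed, against 1.72% of all genes. Contralateral nerves at 7 DPI against contralateral nerves at 3 DPI differed by -0.09 to 0.18, with no member past the test, against 0.0716% of all genes.

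RT1-DMb was also set against RT1-Da within each array, and Cd74 against Cd68, a lysosomal glycoprotein of macrophages. Both ratios were chosen after the values of these genes were seen, so they are given as descriptions with no test. The log2 ratio of RT1-DMb to RT1-Da was 0.91 higher in injured than in contralateral nerves at 3 DPI, with no overlap between the arrays, and 0.16 higher at 7 DPI, with overlap. The ratio of Cd74 to Cd68 was lower in injured than in contralateral nerves, with differences of -2.14 at 3 DPI and -1.52 at 7 DPI and with no overlap on either day. Cd68 itself rose by 2.26 ± 0.18 at 3 DPI and 1.87 ± 0.18 at 7 DPI (limma adjusted p = 3.34e-08 and 4.29e-07), while Cd74 changed by the 0.12 and 0.36 given above.

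In 3 of the 4 groups 1 array was the highest in most members. Contralateral 3 DPI replicate 3 was the lowest of its group in 8 of 8 members and replicate 1 the highest in 7. Injured 7 DPI replicate 2 was the lowest of its group in 8 of 8 members, and the highest was replicate 4 in 6 and replicate 1 in 2. In injured nerves at 3 DPI replicate 4 was the highest in 6 members. Contralateral nerves at 7 DPI were divided, with replicate 4 the highest in 4 members, replicate 3 in 3 and replicate 1 in 1, and with replicate 1 the lowest in 5. The median SD over the 8 members was 0.25 in injured nerves at 3 DPI, 0.36 in contralateral nerves at 3 DPI, 0.41 in injured nerves at 7 DPI and 0.17 in contralateral nerves at 7 DPI. The widest range was that of RT1-Ba in contralateral nerves at 3 DPI, 1.51 log2 units, which exceeds each injury effect measured for a member.

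**Figure D4:**
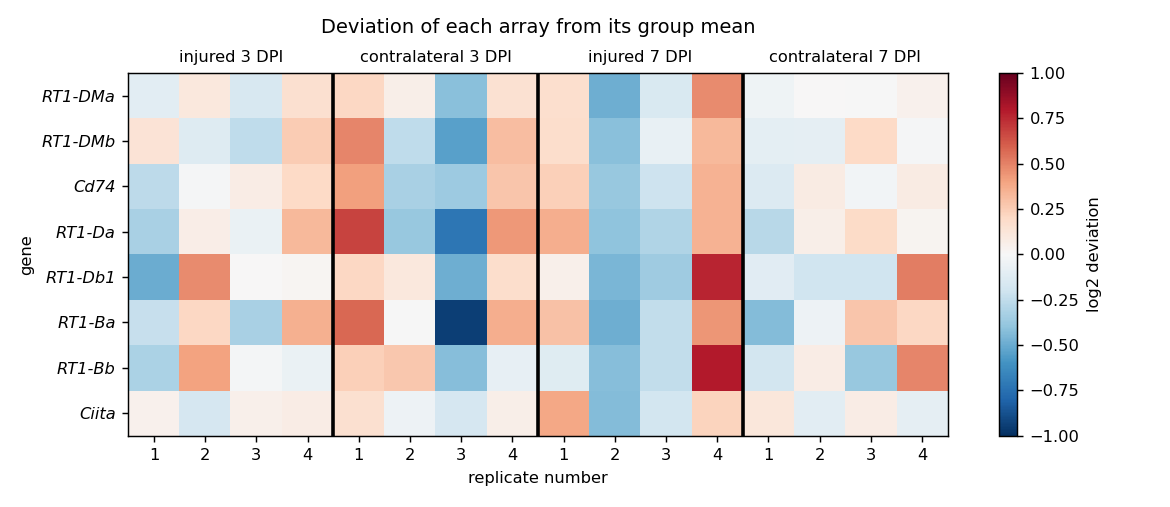
Log2 deviation of each array from its group mean (colour) for the 8 members (rows) on the 16 arrays (columns, by replicate number, injured left of contralateral at each day). Contralateral 3 DPI replicate 3 and injured 7 DPI replicate 2 are below their group means in every member, and injured 7 DPI replicate 4 is above its group mean in every member.

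After subtraction of group means, the 28 pairs of members correlated over the 16 arrays at a median Pearson r of 0.71, and between 0.25 and 0.95. The closest pairs were Cd74 with RT1-Da (0.95), RT1-Bb with RT1-Db1 (0.93) and RT1-Ba with RT1-Da (0.92). The 2 alpha chains varied more closely with each other than with the beta chains of their own molecules, RT1-Da with RT1-Db1 at 0.62 and RT1-Ba with RT1-Bb at 0.59. The lowest correlation was that of Ciita with RT1-Bb. The beta chain genes have similar sequences, and whether probes for 1 hybridised to the other was not tested. These values are descriptions of 16 arrays whose members share each nerve's RNA.

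Among other genes, those most like the mean of the 8 members over the 16 arrays were Spn (Pearson r = 0.93), the leukocyte surface protein CD43, Plek (0.92), pleckstrin of blood cells, Imp4 (0.91), Psmb8 (0.91), an immunoproteasome subunit, and Scamp2 (0.91). With group means subtracted they were C1qb (0.94), a complement chain made by macrophages, Rpn2 (0.93), Pld4 (0.93), Cyba (0.91), a subunit of the phagocyte NADPH oxidase, and Gypc (0.91). On that measure the macrophage genes Adgre1 and Cd68 stood at 0.77 and 0.76, Mx1, an interferon-induced gene, at 0.64, the dendritic cell genes Itgax and Flt3 at 0.51 and 0.36, Cd3e, a T cell receptor subunit, at 0.42, Ms4a1, which encodes the B cell protein CD20, at 0.04, and Sox10 at -0.66.

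Macrophage and monocyte markers rose with injury. Of 24 measured, 24 rose at 3 DPI and 23 at 7 DPI, where 18.8% and 19.1% of all genes rose. The median log2 changes of these markers were 1.56 and 1.00, against 0.30 and 0.41 for the 8 members and -0.01 and -0.00 for all genes. Their mean log2 level ranged from 9.62 to 9.89 in injured nerves at 3 DPI, against 7.80 to 8.48 in contralateral nerves, and from 9.01 to 9.73 in injured nerves at 7 DPI, against 8.18 to 8.62 in contralateral nerves. The largest rise was that of Gpnmb, which foamy macrophages express, with 2.88 ± 0.18 at 3 DPI and 2.87 ± 0.18 at 7 DPI. Within contralateral nerves at 3 DPI the list was highest in replicate 1 and lowest in replicate 3, and within injured nerves at 7 DPI it was highest in replicate 4 and lowest in replicate 2, the same extremes as for most class II members in those 2 groups. In each of the other groups 1 extreme was shared and 1 differed. In injured nerves at 3 DPI the list and the mean of the members were both highest in replicate 4. There the list was lowest in replicate 2 and the mean of the members in replicate 1. In contralateral nerves at 7 DPI both were lowest in replicate 1, while the list was highest in replicate 3 and the mean of the members in replicate 4. The part of macrophage number in the class II values was not tested.

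**Figure D5:**
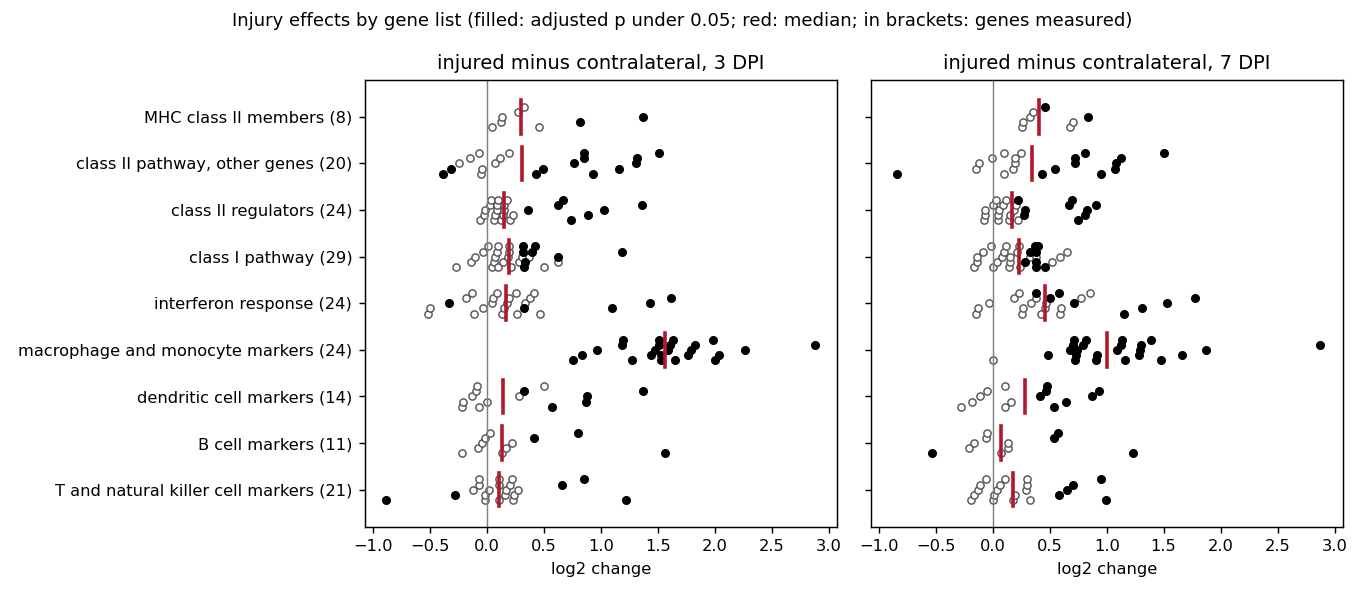
Log2 change of each measured gene in injured minus contralateral nerve at 3 DPI (left) and 7 DPI (right), by list; red bars are medians and filled points have a limma adjusted p under 0.05. Macrophage and monocyte markers have medians of 1.56 and 1.00 and class II members of 0.30 and 0.41.

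Dendritic cell markers rose in part. Of 14 measured dendritic cell markers, 5 rose at 3 DPI (median 0.14) and 7 at 7 DPI (median 0.29), and none fell. Of all genes, 18.8% and 19.1% rose on these days. The largest changes at 3 DPI were those of Clec10a (1.37 ± 0.17) and Dpp4 (0.88 ± 0.16). The paper also uses Dpp4 as a marker of epineurial mesenchymal cells. Itgax, which encodes CD11c, rose by 0.57 ± 0.18 and 0.93 ± 0.18, and Flt3, the receptor of the dendritic cell growth factor Flt3 ligand, showed 0.50 ± 0.20 at 3 DPI (limma adjusted p = 0.0666) and rose by 0.65 ± 0.20 at 7 DPI, where its value of 8.0 in injured replicate 1 stood above the 6.61 to 7.14 of the others. The list's mean log2 level ranged from 6.90 to 6.94 in injured nerves at 3 DPI, against 6.54 to 6.71 in contralateral nerves, and from 6.91 to 7.13 in injured nerves at 7 DPI, against 6.63 to 6.79 in contralateral nerves. Their part in the class II values was not tested.

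Lymphocyte markers were divided, and their counts are to be read against the 18.8% and 19.1% of all genes that rose at 3 and 7 DPI. Of 11 measured B cell markers, 3 rose at each day, Blnk (1.56 ± 0.12 and 1.23 ± 0.12) and Cd22 among them on both, and 1 fell at 7 DPI, while Ms4a1 lay between 4.86 and 5.48 on all arrays with changes of -0.22 and -0.05. Of 21 T and natural killer cell markers, 3 rose and 2 fell at 3 DPI and 5 rose at 7 DPI. Those that rose on both days were Cd8b (1.22 ± 0.20 and 1.00 ± 0.20), Cd8a and Cd4. By contrast, Cd3e lay between 4.94 and 5.61 on all arrays with changes of 0.02 and 0.18, and Cd3g fell by 0.88 at 3 DPI. Cd4 is also counted in the class II pathway list below, and which cells expressed Cd4, Cd8a and Cd8b was not tested. The values of Ms4a1 and Cd3e lay below every array median, and whether these genes were detected was not tested. The mean level of B cell markers ranged from 6.22 to 6.39 in injured nerves at 3 DPI, against 5.91 to 6.15 in contralateral nerves, and from 6.14 to 6.41 in injured nerves at 7 DPI, against 6.04 to 6.17. That of T and natural killer cell markers ranged from 5.91 to 6.00 against 5.71 to 5.86 at 3 DPI, and from 5.92 to 6.39 against 5.73 to 5.93 at 7 DPI. The part of lymphocytes in the class II values was not tested.

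Around the members, genes of antigen processing divided. Of 20 other class II pathway genes measured, 10 rose and 2 fell at 3 DPI (median 0.31), and 10 rose and 1 fell at 7 DPI (median 0.34). The shares of all genes that rose were 18.8% and 19.1%. Several proteases and the thiol reductase that prepare peptides were among those that rose, while Ctsh (-0.25 and -0.12) and Ctsk (-0.07 and 0.25) did not pass on either day. Ctss, cathepsin S, which trims the invariant chain, had values of 10.26, 10.08, 10.12 and 10.39 in injured nerves at 3 DPI, against 8.98, 8.68, 8.24 and 8.91 in contralateral nerves, a wide gap with no overlap. It was 1.51 ± 0.18 higher on each day (2.85-fold and 2.84-fold, limma adjusted p = 4.10e-06 and 5.60e-06). Lgmn, the asparaginyl endopeptidase legumain, rose by 1.31 ± 0.10 and 1.08 ± 0.10, and Ifi30, the reductase GILT, by 1.16 ± 0.13 and 1.07 ± 0.13. Ctsb, cathepsin B, rose by 0.93 ± 0.07 at 3 DPI. Marchf1, a ubiquitin ligase that lowers class II at the cell surface, rose by 1.31 ± 0.14 and 1.13 ± 0.14. Cst3, the cathepsin inhibitor cystatin C, fell by 0.38 at 3 DPI and by 0.84 at 7 DPI. RT1-DOa and RT1-DOb, which form the inhibitor of RT1-DM, lay between 5.81 and 6.64 on all arrays with changes of -0.04 and 0.07 at 3 DPI and 0.20 and 0.10 at 7 DPI, none past the test. RT1-Ha and RT1-Db2, other class II genes, changed by -0.15 to 0.11 and did not pass.

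Of 24 measured regulators, 7 rose at 3 DPI and 9 at 7 DPI, and none fell, where 18.8% and 19.1% of all genes rose. The subunits of the RFX complex, which binds the X box, showed changes of -0.02, -0.06 and 0.03 for Rfx5, Rfxank and Rfxap at 3 DPI, none past the test, and only Rfxap rose at 7 DPI, by 0.28 ± 0.07. Spi1, the myeloid transcription factor PU.1, rose by 1.36 ± 0.18 and 0.75 ± 0.18, and Irf8, a factor of macrophages and dendritic cells, by 1.03 ± 0.15 and 0.91 ± 0.15. Ifng, interferon gamma, the main inducer of Ciita, lay between 4.96 and 5.59 on all arrays, with changes of 0.03 and -0.00. These values lay below every array median, and whether Ifng was detected was not tested. Its receptor genes Ifngr1 and Ifngr2 rose by 0.63 ± 0.07 and 0.67 ± 0.08 at 3 DPI. Jak2, the kinase bound to that receptor, rose by 0.74 ± 0.09 and 0.81 ± 0.09, and Tgfb1, a cytokine known to lower Ciita, by 0.89 ± 0.08 and 0.83 ± 0.08. Irf1, a target of interferon gamma, changed by 0.15 and 0.19, neither past the test.

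Interferon response genes rose in 4 of 24 cases and fell in 1 at 3 DPI, and rose in 8 at 7 DPI, where 18.8% and 19.1% of all genes rose. Gbp2 and Gbp4, guanylate-binding proteins, rose by 1.43 ± 0.13 and 1.61 ± 0.14 at 3 DPI. The chemokine gene Cxcl10 rose by 1.10 ± 0.31 at 3 DPI and 1.77 ± 0.31 at 7 DPI. In injured nerves at 7 DPI the list's mean level was 7.98, 7.31, 7.56 and 8.67 in replicates 1 to 4, and it ranged from 7.17 to 7.46 in contralateral nerves, so replicates 1 and 4, the high arrays of RT1-Da, RT1-Ba, Cd74 and Ciita, were again the high ones. Mx1 had values of 8.33, 6.37, 7.14 and 9.71 in injured nerves at 7 DPI, against 6.52, 6.16, 6.93 and 6.70 in contralateral nerves. Injured replicate 1 also had the highest value of Ckm, muscle creatine kinase, 9.31 against 7.03 to 7.70 in the other injured nerves at 7 DPI, a gene chosen after its values were seen. What part these differences between arrays had in the class II values was not tested.

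Of 29 class I pathway genes, 8 rose on each day and none fell (medians 0.20 and 0.23). The counts in this paragraph are to be read against the 18.8% and 19.1% of all genes that rose at 3 and 7 DPI. The largest class I rise at 3 DPI was that of RT1-T24-1 (1.18 ± 0.28, limma adjusted p = 0.00304), the only 1 of at least 2-fold. Calr, a chaperone of class I assembly, rose by 0.63 ± 0.06 at 3 DPI and by 0.37 ± 0.06 at 7 DPI, and Psme1, a proteasome activator subunit, by 0.33 ± 0.08 and 0.46 ± 0.08. B2m, the class I light chain, rose by 0.38 ± 0.09 at 7 DPI. Of 15 genes of co-stimulation and co-inhibition, 4 rose and 1 fell on each day. Cd86 and Cd80, the ligands of CD28 on T cells, rose by 1.69 ± 0.17 and 1.22 ± 0.12 at 3 DPI and by 1.68 ± 0.17 and 1.34 ± 0.12 at 7 DPI. Cd276, an immune checkpoint molecule, rose by 1.50 ± 0.10 and 1.27 ± 0.10, and Cd48 fell by 0.44 and 0.20. Of 6 genes of the MIF and CD74 receptor complex, 2 rose on each day, Cd44, the signalling partner of CD74, by 1.22 ± 0.06 and 1.02 ± 0.06, and Cxcr4 by 0.87 ± 0.10 and 0.61 ± 0.10. Ddt, a homologue of the CD74 ligand MIF, fell by 0.76 at 7 DPI.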

How the data were processed

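Total RNA of whole nerve was measured on 16 one-colour arrays. The deposited values are log2 and came from RMA (background correction, quantile normalisation and summary of probes) in the oligo package, according to the submitters' processing notes, of no stated version. Because quantile normalisation equalises the arrays, changes that most genes share escape measurement. Precision is limited by the number of arrays, and detection calls were not used here. Of 36685 probe sets, 18511 carried 1 gene symbol in the platform annotation, 575 several and 17599 none. Only the first kind was used, with the probe set of highest mean where a gene had several, which left 18166 genes.

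Groups came from the sample labels. Group means were fitted by lmFit and eBayes of limma 3.58.1 (R 4.3.3; 12 residual and 4.08 prior degrees of freedom) without a block, and 5 comparisons were made. A gene passed the test at an adjusted p under 0.05 and was called where its change was also at least 2-fold. For the members, counts with this 2-fold minimum are given beside those without it. The members, the 13 gene lists and the tests were chosen with earlier results of these data known. Named genes are the members, the largest changes of each list among those past the test, some genes fixed by name and the 5 most like the members' mean. Not every gene so taken is described. Endothelial and mesenchymal markers were also counted: of 8 and 9 measured, 1 and 1 rose and 2 and 4 fell at 3 DPI, and 0 and 1 rose and 6 and 4 fell at 7 DPI. Of 8 Schwann cell markers, 1 rose and 4 fell at 3 DPI, and 2 rose and 3 fell at 7 DPI. Among all genes 18.8% rose and 14.7% fell at 3 DPI, and 19.1% rose and 13.0% fell at 7 DPI. The fit was tested on simulated data with noise drawn for each gene on its own. Those data lacked differences between arrays that genes share, so they do not bear on how the members varied together. Tables used pandas 2.3.3 under Python 3.11.15, and matplotlib 3.10.9 drew the plots.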

Additional observations from a re-analysis of the deposited data

Results flagged for a closer look

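In 3 of the 32 sets of 4 arrays (8 members in 4 groups), 1 array stood apart from the other 3 by a gap that, as a share of the range, exceeded Dixon's critical value for 4 samples. Chance flags about 1 in 20 such sets. Ciita in injured 3 DPI replicate 2 had a log2 value of 6.28, below the other 3 injured nerves. RT1-Db1 in contralateral 3 DPI replicate 3 had a value of 7.38, below its group, and RT1-Db1 in contralateral 7 DPI replicate 4 had a value of 8.55, above its group.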

How the results depend on the processing

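With no fold minimum, 2 members were called at 3 DPI and 2 at 7 DPI, in place of 1 and 0. The 2 members past the adjusted p at 7 DPI became 1 with cyclic loess and 1 with array weights, and 5 with the contralateral arrays of both days pooled (Ciita, RT1-Ba and RT1-Da joining RT1-DMa and RT1-DMb). Leaving out 1 array at a time gave 1 to 5 members, with 5 without injured 7 DPI replicate 2 and 4 without contralateral 3 DPI replicate 3. How many of all genes passed under each of these alternatives was not counted, so these counts cannot be set against a share of all genes. RT1-DMb passed on both days under every alternative run, with changes of 1.19 to 1.53 at 3 DPI and 0.73 to 0.97 at 7 DPI when 1 array was left out. Of 1040 member values under alternatives, 968 kept their direction and side of the threshold, 15 lost it, 16 gained it and 41 reversed.

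None of the reversals touched a value past the test. At 3 DPI RT1-Bb was -0.0073 with median centring and -0.022 with array weights. Ciita's difference of injury effects was 0.019 with median centring and 0.018 with cyclic loess. For contralateral 7 DPI against contralateral 3 DPI, Cd74 was -0.026 with median centring, and RT1-Bb was -0.025 with median centring and -0.0100 with cyclic loess. With 1 array left out, the 3 DPI change ranged from -0.0017 to 0.26 for Cd74, from -0.10 to 0.15 for RT1-Bb and from -0.026 to 0.30 for RT1-Db1, and the 7 DPI change from -0.011 to 0.42 for RT1-Bb. The difference of injury effects ranged from -0.13 to 0.14 for Ciita, from -0.052 to 0.37 for RT1-Bb, from -0.0072 to 0.46 for RT1-Da and from -0.059 to 0.36 for RT1-Db1. Injured 7 DPI against injured 3 DPI ranged from -0.042 to 0.36 for RT1-Bb. Contralateral 7 DPI against contralateral 3 DPI ranged from -0.11 to 0.15 for Cd74, from -0.40 to 0.10 for RT1-Ba, from -0.15 to 0.14 for RT1-Bb, from -0.15 to 0.32 for RT1-Da, from -0.079 to 0.13 for RT1-DMa and from -0.094 to 0.25 for RT1-DMb. The cause was not tested.

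Whether nerves of the same number came from 1 rat is unknown from the labels, so the numbers were not used to pair them. Their deviations correlated at -0.06 to 0.22 at 3 DPI and -0.08 to 0.17 at 7 DPI, and 4 of 8 injured arrays correlated best with their own number. With the replicate number as a block, 1 member was called at 3 DPI and 0 at 7 DPI, RT1-Da passed at 7 DPI (0.68, limma adjusted p = 0.0488), and calls over all genes were 1055 at 3 DPI and 850 at 7 DPI, against 1055 and 846 without it.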
